A study of Mus musculus with 8 samples.

Results

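Cluster 2 is the group of 1671 cells, 18.4% of 9076, that carried the number 2 in the authors' deposited clustering of sorted lung group 2 innate lymphoid cells (ILC2s). Its members were taken by that number alone, and the other 7405 cells fell into 5 clusters numbered 0, 1, 3, 4 and 5. ILC2s are tissue-resident lymphocytes without antigen receptors that answer epithelial alarmins such as interleukin 33 (IL-33) with type 2 cytokines, above all interleukin 5 and interleukin 13, and with the repair factor amphiregulin. When such a lymphocyte receives a signal, immediate early genes (the Fos and Jun subunits of AP-1, the orphan nuclear receptors of the NR4A family) are transcribed within minutes without new protein synthesis. NF-kB target genes follow closely, among them those of the inhibitors that shut the pathway off again. Vimentin, galectin-1 and small calcium-binding S100 proteins are cytoskeletal and membrane-associated products that rise in many activated or migrating lymphocytes.

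The cells came from lungs of wild type male C57BL/6 mice treated through the nose for 3 days, were sorted as ILC2s, tagged with hashtag antibodies, pooled, and sequenced from the 3' end of transcripts in a droplet (10x) assay. The cell table gives hashtags 1 and 2 to PBS alone, hashtags 3, 4 and 5 to IL-33 (with PBS as the vehicle, as the treatment label has it), and hashtags 6, 7 and 8 to IL-33 together with dopamine (labelled IL-33_DA), a catecholamine neurotransmitter. All hashtags shared genotype, strain and sex and were pooled before the droplets were formed; the labels used here give no age. Each hashtag served as 1 replicate. The labels do not say that a hashtag was a single mouse, so p-values measure the spread between hashtags. Cluster 2 held 82 and 142 cells in the PBS hashtags, 203, 168 and 256 in the IL-33 hashtags and 236, 188 and 396 in the hashtags with dopamine. Levels are UMI counts (molecules) summed over the cluster 2 cells of a hashtag and scaled to a total of 1000000 (CPM); the sums held 382613 to 1791486 UMIs.

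The label was checked against marker genes. Of 16 ILC2 markers, 15 had UMIs in cluster 2, and their summed level was 10272 to 11356 CPM over the hashtags. The remaining marker, Ptgdr2, is absent from the deposited counts of all clusters. The transcription factors Rora (2516 ± 123 CPM, SD, n = 8) and Gata3 (1076 ± 113 CPM) and the receptors Il7r (1403 ± 42.5 CPM) and Il1rl1, the IL-33 receptor (768 ± 25.7 CPM), were present in every hashtag. Macrophage markers summed to at most 5.02 CPM and neutrophil markers to at most 2.61 CPM. T cell markers summed to 980 to 1302 CPM in cluster 2 and to 1056 to 1311 CPM in the other clusters, led by the receptor constant genes Trbc2 and Trbc1. Cd8a is likewise absent from the deposited counts. Epithelial markers, led by the secretoglobin Scgb1a1, summed to 103 to 165 CPM in cluster 2 and 96.0 to 145 CPM in the others. The proliferation marker Mki67 averaged 1.57 CPM.

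A cell of cluster 2 held a median of 4704 UMIs, against 4082 in cluster 0, 5480.5 in cluster 3 and 8142 in cluster 5, and its median share of mitochondrial UMIs was 3.74%, against 4.40% in cluster 0 and 3.63% in cluster 3. In the authors' UMAP layout (a map that places cells of like expression side by side), 82.6% of the 15 nearest neighbours of a cluster 2 cell were cluster 2 cells, 9.67% belonged to cluster 3 and 4.11% to cluster 0. Over 2511 genes the median absolute log2 ratio to cluster 2 was smallest for cluster 0 (0.20) and cluster 3 (0.23) and largest for cluster 1 (0.28). Clusters 0 and 3 were therefore the nearest by both measures. No hashtag stood apart in these shares: cluster 2 cells made up 80.8% to 85.3% of the neighbours in each.

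**Figure D1:**
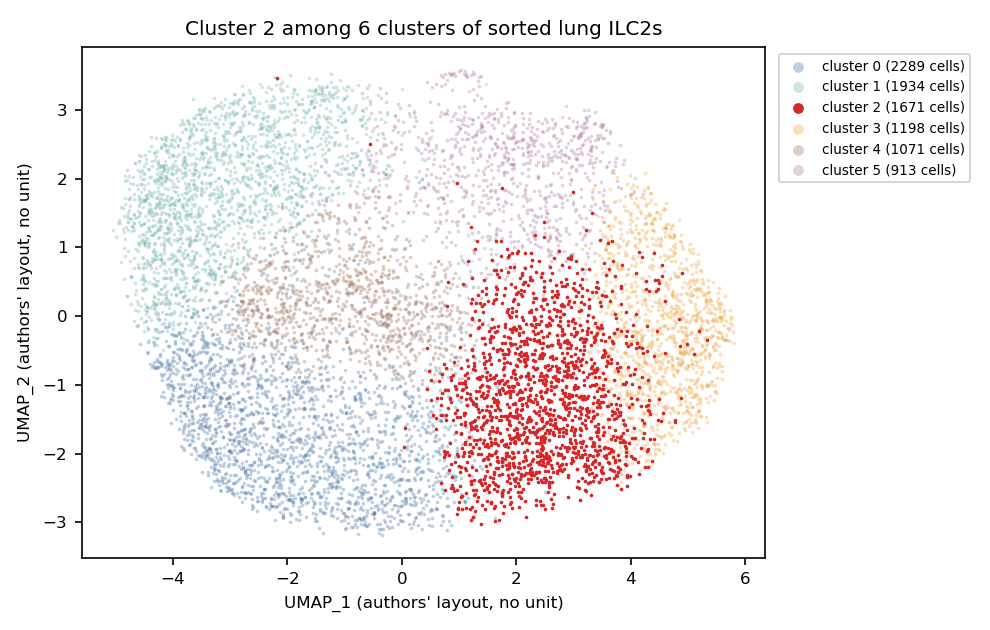
Position of the 1671 cluster 2 cells (red) among all 9076 cells in the authors' UMAP layout, both axes without a unit, 1 point per cell. Cluster 2 lies between cluster 0 and cluster 3, the 2 clusters that hold most of its neighbours outside itself.

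The share of a hashtag's cells that fell into cluster 2 is given as a description only, because genes that differ between treatments may have taken part in the clustering. It was 26.4% (95% exact interval 21.6 to 31.6) and 19.0% (16.2 to 22.0) in the PBS hashtags. In the IL-33 hashtags it was 13.7%, 15.4% and 16.9%, and with dopamine it was 18.8%, 15.7% and 26.8%. Group means were 22.7% ± 5.22 (SD, n = 2), 15.3% ± 1.61 (n = 3) and 20.5% ± 5.74 (n = 3). Both PBS hashtags lay above all IL-33 hashtags, while the dopamine hashtags overlapped both groups. Hashtag 8 alone held the share of 26.8%, and without it the dopamine mean exceeded the IL-33 mean by 1.96 percentage points, against 5.15 with it. The intervals cover counting error only.

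Cluster 2 was marked by transcription factors and feedback inhibitors of acute signalling. Since the genes that the authors clustered on are not known here and any gene may be among them, the values that follow describe the cluster and carry no test. Of 1220 genes with at least 100 CPM in cluster 2, 212 exceeded the other clusters of the same hashtag in all 8 hashtags. Of 1242 genes with at least 100 CPM in the other clusters, 203 were lower in cluster 2 in all 8 hashtags. With predicted genes left out, 208 higher and 197 lower genes remained. The 15 with the largest median log2 ratio (5 CPM added to both sides) were Maff, Hes1, Atf3, Bmp2, Nr4a1, Ets2, Dusp10, Nfkbia, Ifrd1, Nfkbid, Spry2, Hilpda, Vps37b, Mxd1 and Fosl2, with ratios of 1.36 down to 0.91; Nfkbiz, at 0.90, was the next in line. After every cell was reduced to 2000 UMIs, the same ratios ran from 0.89 to 1.304.

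Nr4a1 (also Nur77; chromosome 15, 101254269 to 101274795, GRCm38), an orphan nuclear receptor induced by receptor signalling, ranged over the hashtags from 2441 to 3267 CPM (median 2836) in cluster 2 and from 1184 to 1488 CPM (median 1255) in the other clusters. Nfkbia, which encodes the NF-kB inhibitor IkB-alpha (chromosome 12, 55489410 to 55492647), ranged from 3315 to 4177 CPM (median 3809) against 1631 to 2171 CPM (median 1821). Nfkbid, an atypical nuclear IkB protein (chromosome 7, 30421732 to 30428746), ranged from 395 to 549 CPM (median 510.1) against 207 to 282 CPM (median 231). For these 3 genes cluster 2 stood highest of the 6 clusters in every hashtag. Cluster 2 and the summed other clusters did not overlap for Atf3, a stress-induced transcriptional repressor (chromosome 1, 191170296 to 191218039), at 319 to 416 CPM (median 356) against 92.98 to 274 CPM (median 146). Hes1, the repressor downstream of Notch receptors (chromosome 16, 30064384 to 30067796), stood apart as well, at 519.7 to 1032 CPM (median 711) against 191 to 411 CPM (median 300.3). Against cluster 3 alone, Hes1 was higher in all 8 hashtags. Cluster 4 came nearer for Hes1, at 565 ± 203 CPM (SD, n = 8) against 723 ± 150 in cluster 2. Of the 6 clusters, cluster 2 was the highest for Hes1 in 6 of 8 hashtags. Atf3, which averaged 341 ± 81.0 CPM (SD, n = 8) in cluster 3, was higher in cluster 2 in 4 of 8.

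Nfkbid and Nfkbia, both among the 15 leading genes, each have a listed start with NF-kB motifs before it, and these windows are printed here. For Nfkbid the start is 1 of 3 listed, and its other windows held none of the motifs searched. Atf3, Nr4a1, Ets2 and Dusp10 rank above both genes by ratio, and their windows, not printed, held none either. Maff, Hilpda and Fosl2 also had a start with a match, not printed. Sequences are from RefSeq (GRCm38.p6), cover the 250 bases before a start, read 5′ to 3′ on the gene's strand, and carry motif matches in capitals.
Nfkbid, chr7:30422156-30422405, plus strand: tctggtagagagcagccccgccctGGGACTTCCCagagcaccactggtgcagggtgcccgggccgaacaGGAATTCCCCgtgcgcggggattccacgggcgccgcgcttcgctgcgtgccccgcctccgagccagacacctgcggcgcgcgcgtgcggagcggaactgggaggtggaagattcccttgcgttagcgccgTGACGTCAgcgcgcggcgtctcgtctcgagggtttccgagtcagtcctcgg
Nfkbia, chr12:55492648-55492897, minus strand: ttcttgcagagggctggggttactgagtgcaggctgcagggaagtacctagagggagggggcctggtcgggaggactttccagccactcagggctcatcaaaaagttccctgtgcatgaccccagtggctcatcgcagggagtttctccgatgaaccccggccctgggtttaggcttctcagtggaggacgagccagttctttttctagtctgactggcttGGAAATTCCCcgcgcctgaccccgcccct
In the Nfkbid window the capitals mark NF-kB motifs that begin 226 and 181 bases before the start and the cAMP-response element TGACGTCA that begins 51 bases before it. In the Nfkbia window they mark an NF-kB motif that begins 29 bases before the start. Of the 15 leading genes, 12 were found in the table, with 17 starts; 5 of these starts held the NF-kB motif, against 7.25% of 32851 starts in the table, and 2 held TGACGTCA, against 1.55%. The AP-1 motif (TGAGTCA or TGACTCA) was in 0 of the 17, against 4.46%. Both strands were searched, overlapping NF-kB matches were counted once per start, and a match in such a window is a description of its letters.

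The other leading genes included more transcription factors. Maff, a small Maf protein that lacks an activation domain, averaged 136 ± 26.1 CPM in cluster 2 and 53.4 ± 13.6 in the other clusters (SD, n = 8). In cluster 3 alone Maff averaged 124 ± 18.6 CPM, and cluster 2 was the higher in 4 of 8 hashtags. Fosl2, an AP-1 subunit, averaged 889.7 ± 67.8 against 472 ± 81.1, and Mxd1, an antagonist of Myc, 255 ± 43.8 against 133 ± 19.9. Feedback inhibitors of kinase signalling were represented by Dusp10, a phosphatase of p38 and JNK (154 ± 27.6 against 72.7 ± 16.4 CPM), and Spry2, an antagonist of receptor tyrosine kinases (303 ± 16.5 against 163 ± 34.9). These 4 genes were not set apart from cluster 3 in every hashtag. Cluster 3 alone averaged 927 CPM for Fosl2, 252 for Mxd1, 191 for Dusp10 and 286 for Spry2. Cluster 2 was the higher in 1, 3, 1 and 6 of 8 hashtags, in that order. The 1 secreted ligand among the 15 was Bmp2, a bone morphogenetic protein, at 232 to 546 CPM (median 302) against 101 to 215 CPM (median 127). For all 15 the cluster 2 hashtags lay wholly above those of the summed other clusters.

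Cluster 3 shared much of this pattern. Hilpda, a lipid droplet protein, averaged 1892 ± 178 CPM in cluster 2 and 3184 ± 264 in cluster 3 but 575 ± 47.8 in cluster 0 (SD, n = 8). Ets2 and Vps37b were likewise lower than in cluster 3 in all 8 hashtags, while 10 of the 15 leading genes had their highest mean in cluster 2. Nfkbid separated cluster 2 from both neighbours, with 489 ± 58.01 CPM in cluster 2 against 243 ± 31.7 in cluster 0 and 248 ± 36.98 in cluster 3. Zfp36, which encodes the mRNA decay factor tristetraprolin, averaged 645 ± 102 CPM in cluster 2, 267 ± 17.9 in cluster 0 and 196 ± 22.7 in cluster 3, and Jun 769 ± 149.6, 482 ± 76.2 and 296 ± 54.2. Cell by cell, at 2000 UMIs each, the 15 leading genes together gave a median of 28 UMIs in cluster 2 (quartiles 21 and 36) and 27 in cluster 3. It was 16 in cluster 5, 11 in cluster 0, 9 in cluster 4 and 5 in cluster 1. The medians of the 8 hashtags within cluster 2 ran from 27 to 31.

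**Figure D2:**
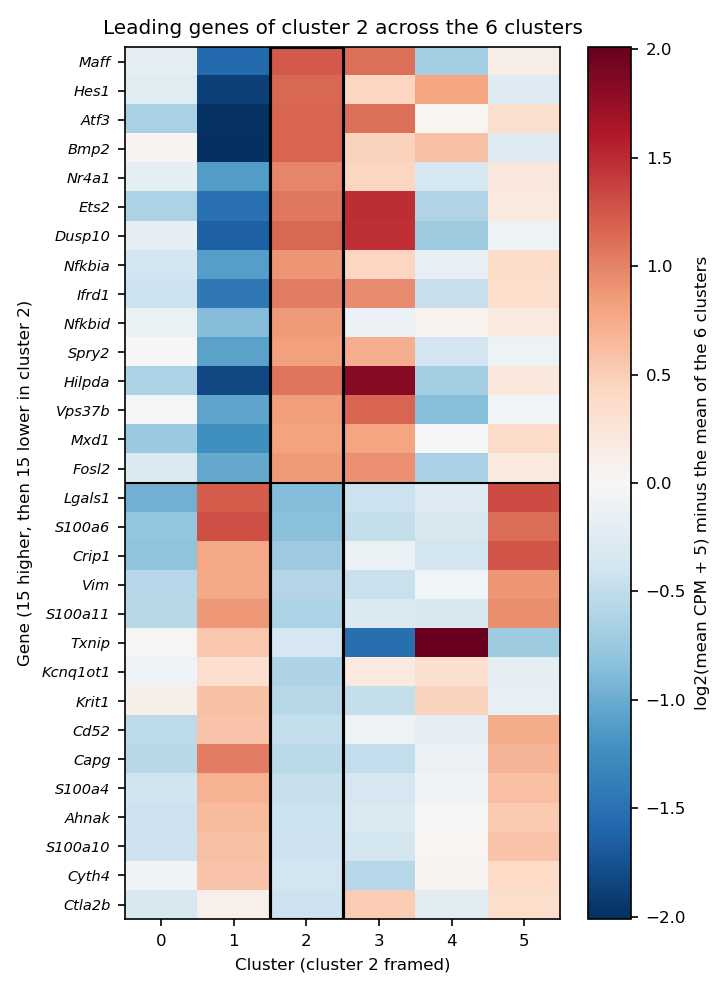
Levels of the 15 leading higher and 15 leading lower genes of cluster 2 (rows) in each of the 6 clusters (columns), as log2(mean CPM + 5) over 8 hashtags minus the gene's mean over the clusters. The higher genes are shared in part with cluster 3 (Hilpda, Ets2), and Lgals1, S100a6 and Vim among the lower genes are low in cluster 0 too and high in clusters 1 and 5, while Txnip is highest in cluster 4 and Ctla2b in cluster 3.

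The 15 leading lower genes were Lgals1, S100a6, Crip1, Vim, S100a11, Txnip, Kcnq1ot1, Krit1, Cd52, Capg, S100a4, Ahnak, S100a10, Cyth4 and Ctla2b, with median log2 ratios of -1.35 to -0.54; Uqcrq, at -0.53, was the next. Among them were the genes of galectin-1, 4 S100 proteins (S100a4, S100a6, S100a10 and S100a11) and vimentin. Cluster 2 had the lowest mean of the 6 clusters for 9 of the 15, while Lgals1, Crip1, Cd52 and Capg were lowest in cluster 0 and Txnip and Cyth4 in cluster 3. Clusters 0 and 3 were close to it: at 2000 UMIs per cell, the 15 genes together gave a median of 9 UMIs in cluster 2 and 10 in clusters 0 and 3. The median was 14 in cluster 4, 24 in cluster 1 and 25 in cluster 5. Lgals1 (chromosome 15, 78926725 to 78930465), the galectin-1 gene, ranged from 156 to 266 CPM (median 225) in cluster 2 and from 341 to 878 CPM (median 562) in the others. Vim (chromosome 2, 13573927 to 13582826), the gene of the intermediate filament vimentin, ranged from 328 to 456 CPM (median 393) against 506 to 998 CPM (median 673). For both, the hashtags of the 2 sides did not overlap. Lgals1 averaged 971 ± 109 CPM in cluster 1 and 1034 ± 231 in cluster 5, but 209.7 ± 24.98 in cluster 0, next to 224 ± 36.5 in cluster 2. At 2000 UMIs per cell, 30.3% of cluster 2 cells had an Lgals1 UMI, against 30.2% in cluster 0 and 75.9% in cluster 1 (without thinning, 49.97% in cluster 2 and 46.7% in cluster 0). The reads of Kcnq1ot1, an antisense transcript, cannot be told from those of its partner unless counting used strand, which no source used here states. Txnip, a thioredoxin inhibitor, averaged 122 ± 21.3 CPM in cluster 2, 158 ± 34.6 in cluster 0 and 51.05 ± 10.98 in cluster 3.

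Several type 2 effector and identity genes had levels in cluster 2 between those of clusters 0 and 3, and others did not. Gata3 averaged 519 ± 50.8 CPM in cluster 0, 1076 ± 113 in cluster 2 and 1653 ± 141 in cluster 3. Rora followed the same order, with 1214 ± 80.7, 2516 ± 123 and 3292 ± 198. Areg, the amphiregulin gene, averaged 721 ± 97.9, 1859 ± 370.2 and 2933 ± 724 CPM. In all 8 hashtags these 3 genes stood above cluster 0 and below cluster 3 of the same hashtag. Icos, a co-stimulatory receptor, at 220.5 ± 35.4, 505 ± 71.1 and 822 ± 171 CPM, did the same. So did Csf2, the gene of the growth factor GM-CSF, at 553 ± 85.8, 1522 ± 317 and 2270.5 ± 486 CPM, though it was highest in cluster 5 (2720.3 ± 445).

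The eosinophil growth factor gene Il5 (chromosome 11, 53720794 to 53725106) averaged 91.1 ± 21.5 CPM in cluster 0, 385 ± 87.4 in cluster 2 and 2215 ± 528 in cluster 3. Il13, whose product drives mucus production and airway contraction (chromosome 11, 53631324 to 53634702), averaged 68.5 ± 20.4, 253 ± 64.1 and 1115 ± 133. Over the hashtags Il5 ranged from 282 to 519.6 CPM (median 356) in cluster 2, and from 366 to 937 CPM (median 539.9) in the other clusters; the ranges overlapped, but within each of the 8 hashtags cluster 2 was the lower. At 2000 UMIs per cell, 24.8% of cluster 2 cells had an Il5 UMI and 17.8% an Il13 UMI, against 11.4% and 7.74% in cluster 0 and 65.9% and 40.98% in cluster 3. The macrophage gene Lyz2, which ILC2s should lack, was seen in 0.120% of the thinned cluster 2 cells. Without thinning, 616 of the 1671 cells (36.9%) had an Il5 UMI, 469 (28.1%) an Il13 UMI, 213 (12.7%) both and 799 (47.8%) neither. Il7r was higher in cluster 2 than in both neighbours, at 1238 ± 86.8 CPM in cluster 0, 1403 ± 42.5 in cluster 2 and 1144 ± 117 in cluster 3. Klrg1, a maturation marker, at 91.3 ± 16.6 CPM had its lowest mean in cluster 2, but overlapped the other clusters and was below cluster 0 in 4 of 8 hashtags. Il4, at 63.98 ± 17.2 CPM, had its highest mean there and overlapped the other clusters too. Arg1 (211 ± 33.8 CPM), Il18r1 (23.7 ± 4.97), Tcf7 (16.8 ± 5.46), Il17rb (92.2 ± 7.12), Il1rl1 and Calca (1179 ± 167) also overlapped between cluster 2 and the others over the hashtags. Drd1 and Drd5 were in the fixed set but are absent from the deposited counts, so no level can be given for them.

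Gene lists were counted by how many measured members (mean of at least 20 CPM) lay on the same side of the other clusters in all 8 hashtags. Over all 4832 measured genes 6.17% were higher and 9.31% lower by this count, with a median log2 ratio of -0.059. Of 20 immediate early and dissociation response genes, 19 were higher and 0 lower, with a median of 0.61; Dusp2 was the exception, higher in 7 of 8. Junb, an AP-1 subunit, averaged 6028 ± 458 CPM in cluster 2, 2710.4 ± 271 in cluster 0 and 6328 ± 432 in cluster 3. Fos averaged 1265 ± 187, 741 ± 79.3 and 981 ± 206, and Nr4a2 689 ± 54.7, 386 ± 71.8 and 669 ± 47.5. Transcripts of this list also rise when tissue is dissociated at body temperature; the hashtags were pooled only after sorting, and the part of dissociation in the pattern was not tested. The cAMP and CREB list, which shares members such as Nr4a1, Fosl2 and Dusp1 with it, had 10 of 15 higher and 0 lower. Among them were the kinase Sik1 (295 ± 40.8 CPM against 163 ± 27.8 in cluster 0) and the clock gene Per1 (134 ± 13.6 against 86.00 ± 11.6).

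Of 18 NF-kB response genes, 6 were higher (Nfkbia, Nfkbid, Nfkbiz, Nfkb1, Tnfaip3 and Birc3) and 0 lower. Tnfaip3, a ubiquitin-editing inhibitor of the pathway also called A20, averaged 1482 ± 90.7 CPM in cluster 2, 1029 ± 56.2 in cluster 0 and 1191 ± 80.2 in cluster 3. Type 2 effectors had 5 of 18 higher (Areg, Ccl1, Lif, Il2 and Tnfsf11) and 1 lower (Il5). The T cell growth factor gene Il2 averaged 217 ± 34.7 CPM against 131 ± 27.6 in cluster 0 and 134 ± 54.1 in cluster 3, and Lif 123 ± 23.9 against 72.8 ± 16.6 and 57.2 ± 20.8. Checkpoint and co-stimulatory receptors had 5 of 11 higher (Pdcd1, Icos, Tnfrsf1b, Cd200r1 and Cd69) and 1 lower, Tnfrsf9, the gene of 4-1BB (13.1 ± 6.798 CPM against 127 ± 24.7 in cluster 3). Cd69, an early activation and retention marker, reached 772 ± 132 CPM, near cluster 0 (840.4 ± 142) and above cluster 3 (219 ± 29.2). Among receptors for mediators, 3 of 12 were higher: the adenosine receptor gene Adora2a (150.2 ± 15.9 CPM against 98.3 ± 17.4 in cluster 0), the prostaglandin receptor gene Ptger4 and Ramp3. The hashtag medians of Adora2a and Ramp3 were higher in cluster 3, at 165 and 980 CPM, than in cluster 2, at 151 and 482. Pdcd1 averaged 366 ± 80.0 CPM in cluster 3 and 237 ± 41.2 in cluster 2, which was the higher in 1 of 8 hashtags.

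On the lower side stood the galectin, S100, annexin and cytoskeleton list, with 13 of 19 lower and 0 higher and a median of -0.48. MHC genes had 4 of 7 lower (B2m, H2-D1, Tap2 and Psmb9) by small amounts, such as 1772 ± 91.99 CPM against 1899 ± 134 for B2m. Nuclear genes of respiratory complexes II to V had 16 of 42 lower and 1 higher (Atp5md), with a median of -0.15, and complex I had 6 of 37 lower and 0 higher (median -0.14). Mitochondrial DNA-encoded genes had 6 of 13 lower and 0 higher (median -0.084). Cytosolic ribosomal protein genes had 33 of 78 lower and 0 higher, but their median of -0.054 lay beside the median of all genes. Quiescence and progenitor factors went both ways, with 4 of 18 higher (Btg1, Btg2, Satb1 and Zeb1) and 3 lower (Tox, Bcl2 and Txnip). Lipid uptake and storage genes had 0 of 10 on either side, and heat shock chaperones 1 of 17 higher and 0 lower. The remaining lists are to be read against the shares of 6.17% and 9.31% over all genes. ILC2 identity genes had 4 of 20 higher (Gata3, Rora, Il7r and Icos) and 1 lower (Thy1). Of alarmin and cytokine receptors 3 of 18 were higher and 2 lower. Migration and residency genes had 2 of 18 higher and 1 lower. The GIMAP family of lymphocyte GTPases had 3 of 7 higher and 0 lower, and interferon response genes 1 of 6 and 0. The unfolded protein response had 1 of 18 higher and 2 lower, and STAT5 and SOCS feedback 1 of 11 and 1. Proliferation genes had 0 of 6 higher and 1 lower. Glycolysis and hypoxia genes had 1 of 15 higher and 2 lower, and amino acid and polyamine metabolism 2 of 10 and 0.

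**Figure D3:**
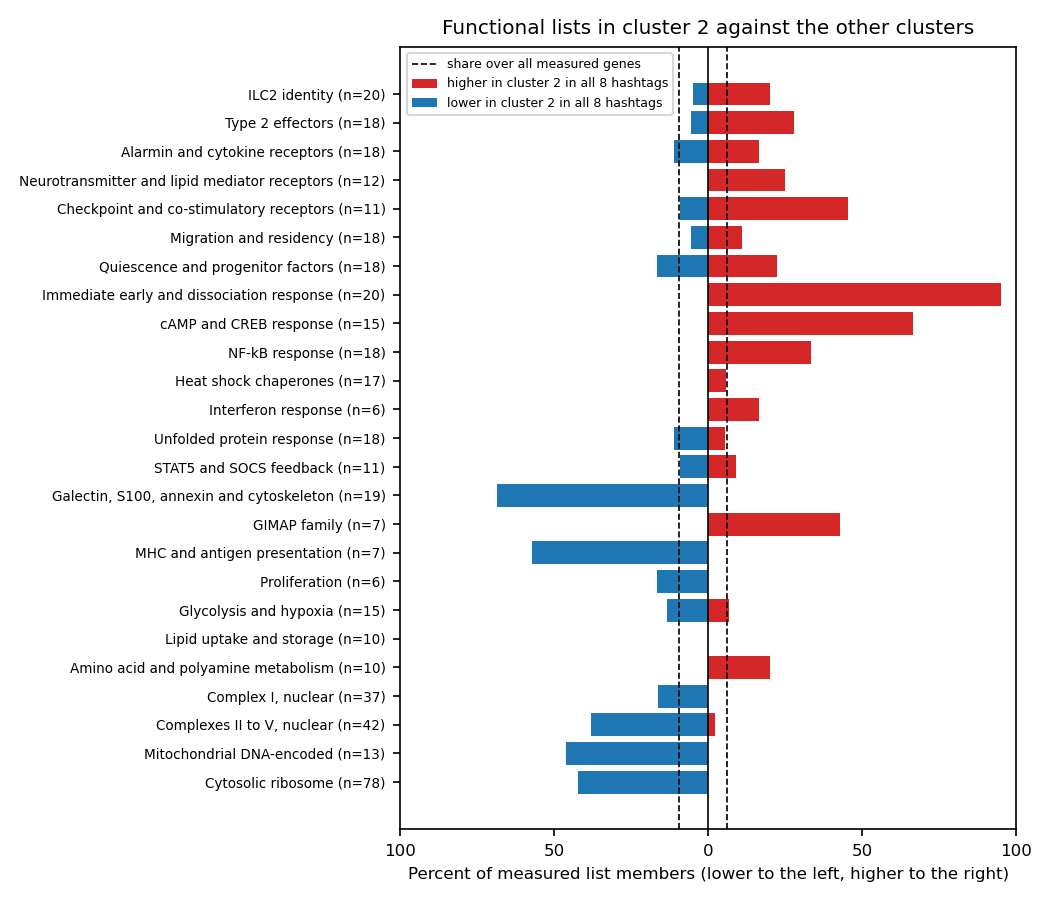
Percent of the measured members of each functional list (rows, n is the number measured) that were higher (red, to the right) or lower (blue, to the left) in cluster 2 than in the other clusters of the same hashtag in all 8 hashtags. Dashed lines mark the shares over all 4832 measured genes, 6.17% and 9.31%; immediate early genes reach 19 of 20 on the higher side.

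Within cluster 2, Areg and Ccl1, both genes of secreted factors, rose with IL-33. Of 7414 genes tested, 3 (0.0405%) passed edgeR's quasi-likelihood test at an adjusted p under 0.05, 2 higher and 1 lower, and 457 (6.16%) had an unadjusted p under 0.05. Areg (chromosome 5, 91139599 to 91148432), which encodes the epidermal growth factor receptor ligand amphiregulin, stood at 1294 and 1336 CPM in the PBS hashtags, 1979.9, 2094 and 2258 in the IL-33 hashtags and 2221, 1796 and 1895 with dopamine added. All IL-33 hashtags lay above both PBS hashtags (log2 fold change 0.70 ± 0.077 SE, adjusted p = 1.47e-05, higher in 3 of 3), and this call held in each of the 14 alternative settings (adjusted p at most 0.00135). Over all 7414 genes, 11.5% were higher with IL-33 without overlap. Ccl1 (chromosome 11, 82176657 to 82305690), a chemokine gene, stood at 1563 and 1869 CPM in the PBS hashtags, 2329, 2155 and 2611 in the IL-33 hashtags and 2292, 2191 and 2114 with dopamine added. Its groups did not overlap either (log2 fold change 0.48 ± 0.076 SE, adjusted p = 0.00540). The call was lost without PBS hashtag 1 (adjusted p = 0.339) and with DESeq2 (adjusted p = 0.0786); over the alternatives its adjusted p ran from 6.42e-09 to 0.339. The third gene, the predicted Gm43305, was outside the naming rule and is named here after its values were seen. It fell, from 977 and 966 CPM with PBS to 576, 579.7 and 421 with IL-33 (log2 fold change -0.88 ± 0.16 SE, adjusted p = 0.0258). The count of 3 became 5 without PBS hashtag 1 or IL-33 hashtag 3 or 5, and 6 without PBS hashtag 2 or dopamine hashtag 6.

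The genes that came next by p did not pass, though Csf2 and Cxcl1 each passed in 5 of the 14 alternatives and Ctla2a in 4. Csf2 stood at 1477 and 1056 CPM in the PBS hashtags, 1796, 1886 and 1701 in the IL-33 hashtags and 1794, 1277 and 1188 with dopamine added (log2 fold change 0.54 ± 0.12 SE, adjusted p = 0.189). The IL-33 hashtags lay above both PBS hashtags, as they did for 11.5% of all genes. Csf2 passed without PBS hashtag 1 (adjusted p = 0.0180) or dopamine hashtag 6 (adjusted p = 0.00507), with only the 2 groups in the fit, in thinned cells and without the count filter. Cxcl1, a neutrophil chemoattractant gene, stood at 75.8 and 28.1 CPM in the PBS hashtags, 113, 266 and 132 in the IL-33 hashtags and 139, 79.8 and 141 with dopamine added (log2 fold change 1.86 ± 0.38 SE, adjusted p = 0.0774). Ctla2a, a cathepsin inhibitor gene, and the non-coding Gas5 had log2 fold changes of 0.55 ± 0.11, adjusted p = 0.0774, and 0.43 ± 0.10, adjusted p = 0.189. On the lower side the values nearest to passing were those of Nrgn (-0.49 ± 0.13, adjusted p = 0.373), Ost4, Prr7, Zfp36l2, an mRNA decay factor gene (-0.39 ± 0.10, adjusted p = 0.373), Cers4 and Rbm3. Among the fixed ILC2 genes, 17 were tested and 1, Areg, passed. Il5 stood at 319 and 319 CPM in the PBS hashtags, 282, 519.6 and 439 in the IL-33 hashtags and 378, 488 and 334 with dopamine added. Its PBS and IL-33 hashtags overlapped (log2 fold change 0.38 ± 0.18 SE, adjusted p = 0.793, interval 0.013 to 0.76). Il13 likewise overlapped, at 301 and 248 CPM in the PBS hashtags, 224, 352 and 218 in the IL-33 hashtags and 317, 184 and 178 with dopamine added (-0.035 ± 0.21, adjusted p = 0.995, interval -0.47 to 0.40). The receptor gene Il1rl1 (-0.058 ± 0.081, adjusted p = 0.972) and Gata3 (-0.070 ± 0.091, adjusted p = 0.966) had intervals of -0.22 to 0.11 and -0.26 to 0.12.

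By list, 6 of the 20 tested type 2 effectors had a higher value at an unadjusted p under 0.05 (1 was lower), against 6.16% of all genes, and 2 passed. The median log2 fold change was 0.32, where that of all genes was -0.00074. Immediate early genes went both ways: 3 of 21 were higher and 4 lower at that p, 0 passed, and the median was -0.025. The 15 leading genes of the cluster had 6 at an unadjusted p under 0.05, a median of -0.099 and a lowest value of -0.38; 0 passed. Cytosolic ribosomal protein genes showed small positive values, 64 of 78, with 22 at an unadjusted p under 0.05 and a median of 0.056; 0 passed, and 30 of the 78 were higher without overlap, against 11.5% of all genes. With library totals in place of TMM scaling 56 of the 78 were positive and 13 reached that p. Nuclear genes of complexes II to V had a median of -0.047, with 2 of 42 higher and 1 lower at that p.

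Adding dopamine to IL-33 gave no gene that passed within cluster 2: 0 of 7414 (0.0%) at an adjusted p under 0.05 with edgeR, with 430 (5.8%) at an unadjusted p under 0.05. The smallest adjusted p was 0.141, and DESeq2 gave 0 as well (111 unadjusted). Of the values nearest to passing, Icos stood at 544 and 479 CPM in the PBS hashtags, 452, 442 and 412 in the IL-33 hashtags and 606, 515 and 591 with dopamine added. The dopamine hashtags lay above all IL-33 hashtags and overlapped the PBS hashtags (log2 fold change 0.38 ± 0.084 SE, adjusted p = 0.168, interval 0.20 to 0.55). Over all genes, 6.1% were higher without overlap. Nfkbid had the same shape, at 533 and 499.9 CPM in the PBS hashtags, 451, 395 and 426 in the IL-33 hashtags and 549, 520.3 and 539.8 with dopamine added (log2 fold change 0.32 ± 0.080 SE, adjusted p = 0.260). Odc1, the rate-limiting enzyme of polyamine synthesis, stood at 859.9 and 1041 CPM in the PBS hashtags, 719, 703 and 863 in the IL-33 hashtags and 1069.8, 871 and 1079 with dopamine added (log2 fold change 0.38 ± 0.089 SE, adjusted p = 0.181). Jarid2 (0.51 ± 0.13, adjusted p = 0.323), Arap2 (0.62 ± 0.16, adjusted p = 0.326) and Tusc3 (0.54 ± 0.14, adjusted p = 0.354) completed the higher side.

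On the lower side Cxcl10, an interferon-inducible chemokine gene, stood at 83.6 and 57.7 CPM in the PBS hashtags, 82.9, 100.2 and 118 in the IL-33 hashtags and 67.3, 62.2 and 55.3 with dopamine added (log2 fold change -0.75 ± 0.15 SE, adjusted p = 0.141). Cxcl2, a neutrophil chemoattractant gene (chromosome 5, 90903871 to 90905938), stood at 1688 and 1541 CPM in the PBS hashtags, 2375, 2349 and 2099.5 in the IL-33 hashtags and 1967, 1169 and 1992 with dopamine added. Hashtag 7 was the lowest of all (log2 fold change -0.43 ± 0.11 SE, adjusted p = 0.330). The chaperone gene Hsph1 stood at 123 and 70.99 CPM in the PBS hashtags, 87.5, 140.2 and 61.4 in the IL-33 hashtags and 41.8, 48.7 and 59.7 with dopamine added (log2 fold change -0.87 ± 0.22 SE, adjusted p = 0.303). Ccrl2 (-0.63 ± 0.15, adjusted p = 0.181), Hist1h2bc (-0.56 ± 0.14, adjusted p = 0.256) and the leukotriene receptor gene Ltb4r1 (-0.45 ± 0.11, adjusted p = 0.260) were the others. Areg was -0.12 ± 0.065, adjusted p = 0.889, with an interval of -0.25 to 0.013; Il5 was -0.074 ± 0.14, adjusted p = 0.968, with -0.37 to 0.22, and Il13 -0.23 ± 0.17, adjusted p = 0.940, with -0.58 to 0.12. For genes of at least 50 CPM the median half-width of the interval was 0.28 on the log2 scale. These intervals are not adjusted for the number of genes tested, and the larger changes of Cxcl10 (-0.75) and Hsph1 (-0.87) did not pass. With 3 hashtags against 3, a change above 0.28 could therefore be missed at the adjusted threshold. T cell markers in cluster 2 summed to 1044 to 1237 CPM in the IL-33 hashtags and 1220.2 to 1302 CPM with dopamine, and their part in these values was not tested. The count of 0 became 2 without IL-33 hashtag 4, 8 without IL-33 hashtag 5, 4 without dopamine hashtag 6 and 3 without dopamine hashtag 8.

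Of the type 2 effectors, 0 of 20 were higher and 5 lower (Cxcl3, Cxcl2, Csf2, Ltb and Calca) at an unadjusted p under 0.05, against 5.8% of all genes, with a median of -0.12; 0 passed. Csf2 did not pass, at -0.36 ± 0.10, adjusted p = 0.408, with hashtag 6 among the IL-33 values; without that hashtag it passed (adjusted p = 0.00268). Cytosolic ribosomal protein genes had negative values in 73 of 78, 8 of them at that p, with a median of -0.053; 17 of the 78 were lower without overlap, against 4.91% of all genes, and with library totals 63 of 78 were negative. The IL-33 and dopamine comparisons share the IL-33 hashtags. NF-kB response genes had 2 of 19 higher (Nfkbid and Nfkbia) and 1 lower at that p. Immediate early genes had 0 of 21 higher and 2 lower (Zfp36 and Dusp1) at that p. Checkpoint and co-stimulatory receptors had 3 of 14 higher (Icos, Ctla4 and Pdcd1) and 2 lower (Tnfrsf1b and Tnfrsf4) at that p.

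**Figure D4:**
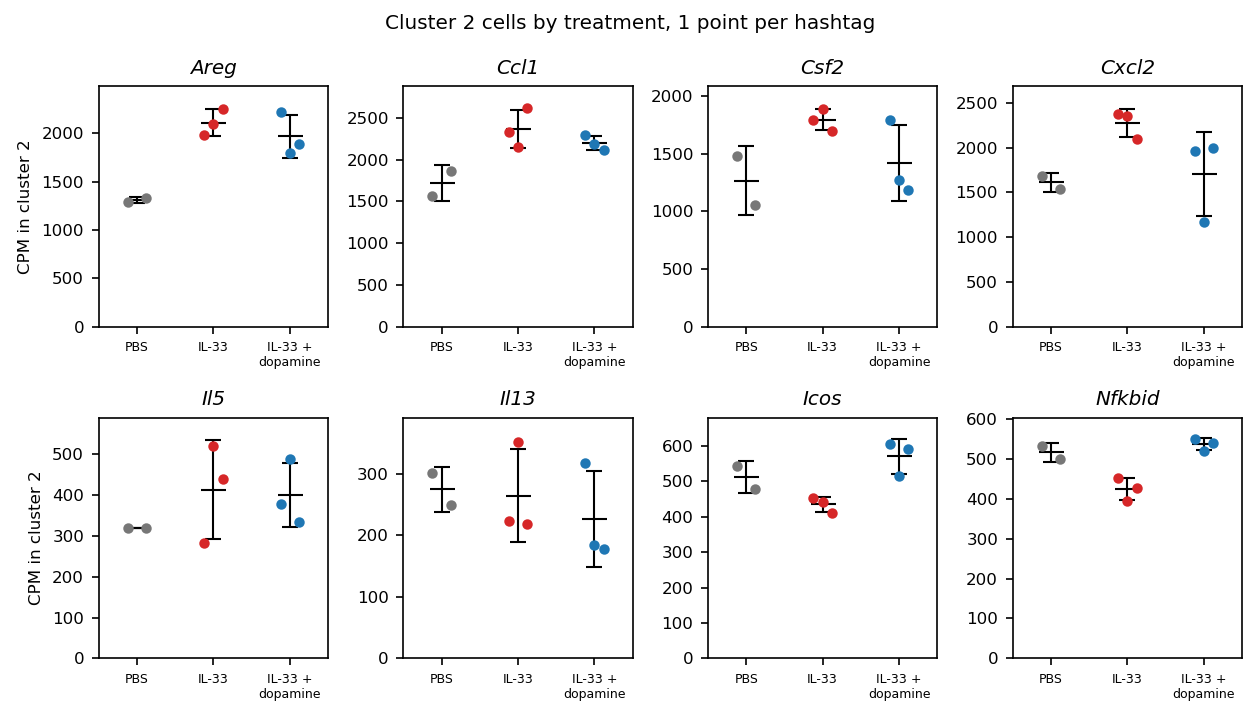
CPM of 8 genes in cluster 2 by treatment, 1 point per hashtag (2 PBS, 3 IL-33, 3 IL-33 plus dopamine), with the mean and SD in black and axes that start at 0. Areg and Ccl1 lie higher in all IL-33 hashtags than in both PBS hashtags, Il5 and Il13 overlap, and Icos and Nfkbid are higher in all dopamine hashtags than in the IL-33 hashtags, though neither passed the test. Over all genes, 11.5% were higher without overlap with IL-33 and 6.1% with dopamine added.

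Whether cluster 2 answered IL-33 differently from the other clusters was tested as an interaction, with cluster 2 and the sum of the other clusters of each hashtag in 1 fit and the hashtag as a block. Of 8840 genes 21 (0.238%) passed, 15 with a more positive response in cluster 2 and 6 with a more negative one, and 668 (7.56%) had an unadjusted p under 0.05. For Atf3, Lgals1 and Vim the PBS and IL-33 hashtags overlapped within cluster 2, while those of the other clusters stood apart. Atf3 stood at 387 and 329.8 CPM with PBS and 319, 368 and 416 with IL-33 in cluster 2, and at 274 and 206 and then 114, 92.98 and 138 in the other clusters (difference of log2 fold changes 1.14 ± 0.15 SE, adjusted p = 0.000272). Lgals1 stood at 227 and 262 and 223, 192 and 244 in cluster 2 and at 341 and 511 and then 878, 612 and 756 in the others (difference of log2 fold changes -0.88 ± 0.18 SE, adjusted p = 0.0265). Vim stood at 355 and 433 and 431, 374 and 456 in cluster 2 and at 506 and 510.4 and then 998, 743 and 944 in the others (difference of log2 fold changes -0.67 ± 0.14 SE, adjusted p = 0.0265). Taken 1 at a time, the other clusters had log2 ratios of IL-33 to PBS of -2.05 to -0.42 for Atf3. For Lgals1 the ratios were 0.56 in cluster 3 and 0.75 in cluster 5, but -0.21 in cluster 0, 0.014 in cluster 1 and 0.13 in cluster 4. For Vim they were 0.52 and 0.98 in clusters 3 and 5 and 0.11 to 0.24 in clusters 0, 1 and 4. The PBS side of the cluster 5 ratios rested on 8 cells in hashtag 1 and 23 in hashtag 2.

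The make-up of the other clusters moved with the treatment. Cluster 5 gave 4.65% and 5.09% of their UMIs in the PBS hashtags and 16.7% to 34.3% in the IL-33 hashtags, and cluster 0 gave 36.4% and 39.8% and then 13.2% to 23.3%. When all clusters entered 1 fit and cluster 2 was set against the mean of the other 5, each counted equally, 0 of 9030 genes passed (599 at an unadjusted p under 0.05). That fit also took in sums of few cells, among them the PBS sums of cluster 5 (8 and 23 cells). The median log2 difference of all genes was then -0.096, against 0.026 before. Atf3 was 1.04 with an adjusted p of 0.135 in that fit. Of the 21 calls, 5 were also made by DESeq2, and with library totals alone 16 genes passed, 6 more positive and 10 more negative, 12 of them shared. Without PBS hashtag 1 or IL-33 hashtag 3 the count was 2, without IL-33 hashtag 4 it was 6, without IL-33 hashtag 5 it was 13, and without dopamine hashtag 6 or 8 it was 34 or 36.

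By list, galectin, S100, annexin and cytoskeleton genes had 10 of 20 more negative in cluster 2 at an unadjusted p under 0.05 and 0 more positive, 3 of them passing (Lgals1, Vim and S100a4), with a median of -0.30. The equal-weight fit left 5 at that p and a median of -0.12. At that p, which 7.56% of all genes reached, immediate early genes had 10 of 22 more positive and 0 more negative, 1 passing (Atf3). The equal-weight fit gave 6 of 23 and 0 for them. Cytosolic ribosomal protein genes had 35 of 78 more positive and 1 more negative at that p, with Rplp1 (0.20 ± 0.040, adjusted p = 0.0265), Rps21 and Rps24 passing and a median of 0.10. With library totals 6 were more positive and 4 more negative at that p. In the equal-weight fit the counts were 0 and 1, and the median was -0.022. Tnfrsf18, the gene of the co-stimulatory receptor GITR, was the checkpoint gene that passed (0.62 ± 0.13, adjusted p = 0.0310). The response of Areg in cluster 2 was not shown to differ from that of the others (0.23 ± 0.13, adjusted p = 0.722, interval -0.031 to 0.48).

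**Figure D5:**
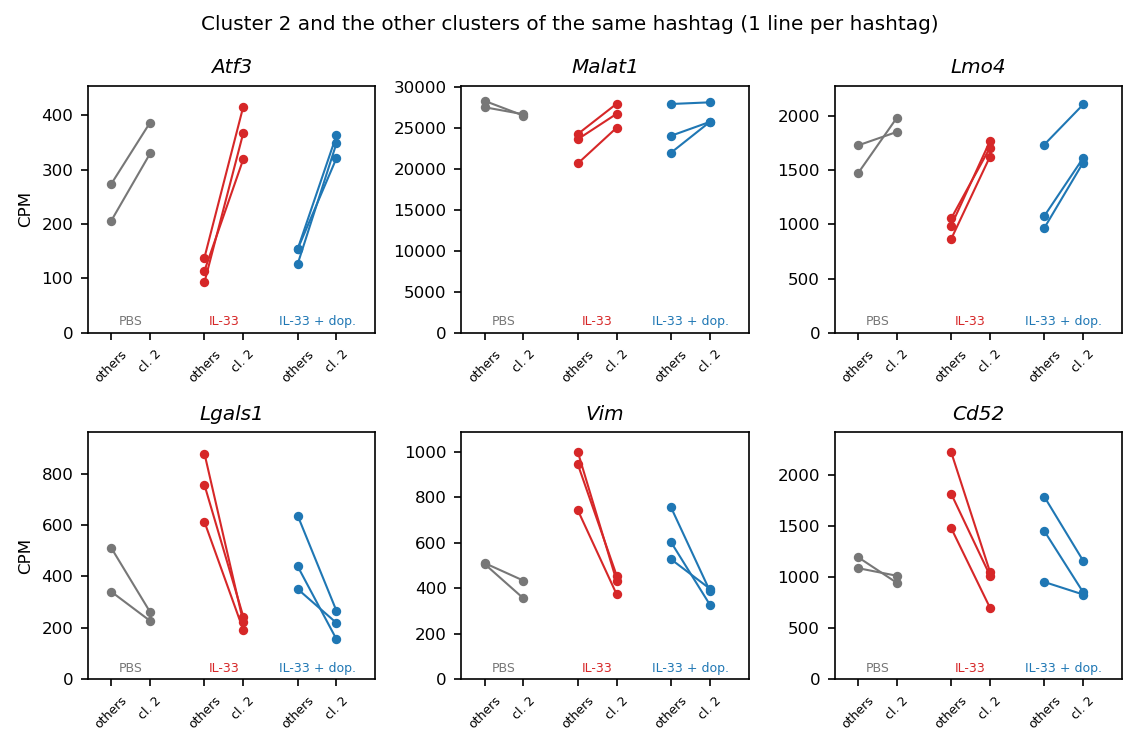
CPM of 6 genes in cluster 2 (cl. 2) and in the summed other clusters of the same hashtag (others), 1 line per hashtag, in PBS (grey), IL-33 (red) and IL-33 plus dopamine (blue), with axes that start at 0. The slopes differ between PBS and IL-33 mostly through the values of the other clusters, for example Atf3 at 206 and 274 CPM with PBS and 93.0 to 138 CPM with IL-33.

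For dopamine the same test gave 0 of 8840 genes (0.0%) with edgeR and with DESeq2, with 516 (5.84%) and 118 at an unadjusted p under 0.05. Il5 came close. In cluster 2 it stood at 282, 519.6 and 439 CPM with IL-33 and 378, 488 and 334 with dopamine. In the other clusters it stood at 366, 567 and 512 and then 582, 773 and 937, where the groups did not overlap (difference of log2 fold changes -0.72 ± 0.15 SE, adjusted p = 0.0762, interval -1.02 to -0.42). It passed with library totals (adjusted p = 0.0452), in thinned cells, without the count filter and without dopamine hashtag 6, and its adjusted p over the alternatives ran from 1.42e-09 to 1.00. The difference was -0.27 with every cluster in 1 fit. Cluster 3, the cluster with the most Il5, gave 9.21% to 15.9% of the other clusters' UMIs in the IL-33 hashtags and 15.9% to 32.5% with dopamine. Il13 was -0.46 ± 0.24, adjusted p = 0.850. Immediate early genes had 7 of 22 and NF-kB response genes 6 of 19 more negative in cluster 2 at an unadjusted p under 0.05, with 0 passing. The equal-weight fit gave 1 of 23 and 1 of 20 more negative for these lists, and its median for immediate early genes was -0.024, against -0.18 before. The count of 0 became 44 without dopamine hashtag 6, 3 without PBS hashtag 1 or IL-33 hashtag 5, and 2 without PBS hashtag 2 or IL-33 hashtag 3.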

How the data were processed

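UMI counts per gene and cell were deposited by the authors, with a cell table that gives each cell's hashtag, treatment, cluster, UMI count, percent of mitochondrial UMIs and UMAP position (a score without unit). Cell Ranger 6.1.1, Seurat 4.0.2 and build mm10 are named in the submitters' processing notes. All 9076 cells were used; the largest deposited percent of mitochondrial UMIs was 7.50. No source used here states how doublets were treated, and no caller was run; the protocol gives 60000 cells loaded per channel. The bulk libraries of the series were not used. Cluster 2 counts were summed per hashtag and tested with edgeR 4.0.16 (TMM, filterByExpr, quasi-likelihood, Benjamini-Hochberg over all genes tested, adjusted p under 0.05), 3 treatments in 1 fit; interactions used cluster 2 and the summed other clusters with hashtag as block. The test was tested on simulated data, in which the make-up of the other clusters did not change with treatment. That simulation therefore does not cover the interactions under such a change. Alternatives were DESeq2 1.42.0, its size factors, no filter, thinned cells, each hashtag left out, 2 groups only, every cluster in 1 fit, and library totals. At these depths the median half-width of the 95% interval was 0.37 (IL-33) and 0.28 (dopamine) on the log2 scale for genes of at least 50 CPM.

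The members and lists were chosen with earlier results of these data known. Named genes were up to 15 per direction that lay on 1 side of the other clusters in all 8 hashtags (at least 100 CPM, ranked by median log2 ratio with 5 CPM added), up to 12 passing genes per direction and treatment (at least 50 CPM, groups not overlapping), filled up to 6 with the smallest p, up to 6 per direction and interaction, up to 3 passing members of each of 25 lists, and a fixed set of ILC2 genes; predicted genes were left out. Coordinates are those of GRCm38 (mm10).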

Additional observations from a re-analysis of the deposited data

Results flagged for a closer look

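These 11 genes are listed because their change with IL-33 differed between cluster 2 and the summed other clusters by the interaction test over 8 hashtags; values are differences of log2 fold changes, positive where cluster 2 was the more positive, and 0 genes passed when all clusters entered 1 fit with equal weight. Malat1, a nuclear non-coding RNA, differed by 0.36 ± 0.042 SE (adjusted p = 3.51e-05), with a log2 ratio of IL-33 to PBS of -0.00098 in cluster 2 alone. Atf3, the stress-induced repressor gene, differed by 1.14 ± 0.15 SE (adjusted p = 0.000272), with a log2 ratio of IL-33 to PBS of 0.037 in cluster 2 alone. Lmo4, a transcriptional co-factor gene, differed by 0.61 ± 0.10 SE (adjusted p = 0.00684), with a log2 ratio of IL-33 to PBS of -0.17 in cluster 2 alone. Tpt1, a translationally controlled protein gene, differed by 0.20 ± 0.039 SE (adjusted p = 0.0258), with a log2 ratio of IL-33 to PBS of 0.10 in cluster 2 alone. Cxcl10, an interferon-inducible chemokine gene, differed by 1.27 ± 0.25 SE (adjusted p = 0.0265), with a log2 ratio of IL-33 to PBS of 0.48 in cluster 2 alone. Bambi, a pseudoreceptor of transforming growth factor beta signalling, differed by 1.06 ± 0.21 SE (adjusted p = 0.0265), with a log2 ratio of IL-33 to PBS of 0.34 in cluster 2 alone.

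On the negative side stood 5 genes. Cd52, a surface glycoprotein gene of lymphocytes, differed by -0.70 ± 0.11 SE (adjusted p = 0.00441), with a log2 ratio of IL-33 to PBS of -0.085 in cluster 2 alone. Ltb, the lymphotoxin beta gene, differed by -0.51 ± 0.10 SE (adjusted p = 0.0265), with a log2 ratio of IL-33 to PBS of -0.024 in cluster 2 alone. Lgals1, the galectin-1 gene, differed by -0.88 ± 0.18 SE (adjusted p = 0.0265), with a log2 ratio of IL-33 to PBS of -0.15 in cluster 2 alone. Vim, the vimentin gene, differed by -0.67 ± 0.14 SE (adjusted p = 0.0265), with a log2 ratio of IL-33 to PBS of 0.090 in cluster 2 alone. S100a4, a calcium-binding protein gene, differed by -0.45 ± 0.10 SE (adjusted p = 0.0324), with a log2 ratio of IL-33 to PBS of -0.31 in cluster 2 alone. Cd52 stood at 1014 and 945 CPM with PBS and 1052, 701 and 1016 with IL-33 in cluster 2, and at 1089 and 1196 and then 2225, 1481 and 1817 in the other clusters.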

How the results depend on the processing

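Counts of passing genes moved with the settings. For IL-33 against PBS in cluster 2 the 3 calls became 20 without the filter on low counts, 1 with DESeq2, 5 in cells thinned to 2000 UMIs, 5 with only the 2 groups in the fit, and 3 to 6 with 1 hashtag left out. For dopamine the 0 calls became 23 without the filter, 3 in thinned cells and 0 to 8 with 1 hashtag left out. For the IL-33 interaction the 21 calls became 66 without the filter, 5 with DESeq2, 10 in thinned cells (7 shared), 0 with every cluster in 1 fit and 2 to 36 with 1 hashtag left out. For the dopamine interaction the 0 calls became 41 without the filter, 3 in thinned cells, 5 with library totals and 0 to 44 with 1 hashtag left out. The cause was not tested. DESeq2 size factors kept each count within 1.5 times. Library totals as scaling were chosen after seeing the data. No hashtag had fewer than 30 cluster 2 cells (the fewest was 82), so leaving out such hashtags gave no value. The difference in cluster 2 share ran from -11.1 to -3.67 percentage points for IL-33 and from 1.96 to 7.53 for dopamine with 1 hashtag left out. No paired analysis was possible because hashtags carry different numbers in each treatment; the hashtag was the block of both interaction fits.

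Of the named genes, those whose log2 fold change changed sign under a setting were not past the threshold. In the IL-33 against PBS comparison these were Gata3 (-0.19 to 0.0058 with 1 hashtag left out), Il13 (-0.28 to 0.093 with 1 hashtag left out), Il17rb (0.014 without the filter, -0.11 to 0.062 with 1 hashtag left out), Il7r (0.0065 without the filter, -0.051 to 0.0016 with 1 hashtag left out), Klrg1 (0.0079 without the filter, 0.15 in thinned cells, -0.42 to 0.32 with 1 hashtag left out) and Pdcd1 (0.0012 in thinned cells, -0.24 to 0.12 with 1 hashtag left out). In the dopamine comparison these were Il13 (-0.54 to 0.0072 with 1 hashtag left out), Il17rb (-0.15 in thinned cells, -0.040 to 0.093 with 1 hashtag left out), Il1rl1 (-0.0014 to 0.060 with 1 hashtag left out), Il4 (0.014 in thinned cells), Il5 (-0.28 to 0.11 with 1 hashtag left out), Il7r (0.014 in thinned cells, -0.043 to 0.0074 with 1 hashtag left out) and Rora (0.00033 without the filter, 0.029 in thinned cells, 0.0042 with library totals, -0.051 to 0.039 with 1 hashtag left out). In the IL-33 interaction these were Il13 (-0.42 to 0.13 with 1 hashtag left out).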
